A study of Arabidopsis thaliana with 3 samples.

Results

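The genes described here are KAR (AT1G24360), FATA (AT3G25110) and FATB (AT1G08510), which act in fatty acid synthesis in the plastids of Arabidopsis thaliana. They were chosen by name, as the genes that the array annotation pairs with these loci, and they make 3 of the 3592 loci that could be named on the array. Each was read by 1 probe set (short probes that together report 1 value for a transcript): KAR by 20709_s_at, FATA by 19636_at and FATB by 16467_s_at. The suffix _s_at marks a probe set whose probes can match more than 1 similar transcript, so the KAR and FATB values may include reads of related transcripts.

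The study measured leaf RNA on 3 Affymetrix Arabidopsis genome arrays. The first 2 arrays held leaves of transgenic lines 13 and 22, which overexpress the AP2/ERF transcription factor WIN1 from the 35S promoter of cauliflower mosaic virus, a promoter active in most tissues. Per the labels, the leaves of each line were pooled from several T2 plants. The third array held pooled leaves of several control plants. Its title reads 35S:WIN1 WT control, whereas its description gives plants transformed with an empty binary vector. It was treated as the empty-vector control. The labels used here state no plant age or growth condition. Each line and the control had 1 array, so errors are the SD between the 2 lines, the control has no replicate, and both ratios use that same control. WIN1 itself (AT1G15360) had no paired probe set, and its level was not analysed here.

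In plastids, fatty acids grow on acyl carrier protein (ACP) by repeated rounds of condensation, reduction, dehydration and a further reduction. KAR, the 3-ketoacyl-ACP reductase, performs the first reduction of each round with NADPH. The acyl-ACP thioesterases then end the chain by cutting it from ACP. FATA acts mainly on oleoyl-ACP, and FATB prefers saturated chains such as palmitoyl-ACP. The released chains leave the plastid and feed membrane lipids, the very-long-chain compounds of leaf wax, and cutin. Loss of FATB in Arabidopsis is known to lower wax, and overexpression of WIN1 is known to raise leaf wax.

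Each array had 8247 linear intensities, whose deposited median was 70.2 (line 13), 35.2 (line 22) and 84.1 (control). The arrays were therefore multiplied by 1 factor each to a common trimmed mean. Ratios were taken as differences of log2(scaled intensity + 18.6), a pseudocount that understates the ratios of dim probe sets. Of the 3 probe sets of these genes, those of KAR and FATB were among the 5773 bright enough to be kept, and that of FATA was not. The tissue label was checked with leaf mesophyll markers. Of 9 listed markers, the 5 that matched a probe set (PRK, RCA, SBPASE, PSAE-1 and LHCB4.1) were all bright, with scaled intensities from 522.8 to 4468. None of the 17 listed markers of epidermis, root, seed and flower matched a probe set, so other tissues in the leaf pools could not be checked. In pooled leaves, fewer cells of a type and less RNA per cell cannot be told apart.

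KAR was bright on every array and was somewhat higher in line 22 than in the control after scaling. The line 13 array read 1487, the line 22 array 2293 and the control array 1373 for KAR after scaling. Both lines thus lay above the control, line 13 by little. The log2 ratio to the control was 0.11 in line 13 and 0.73 in line 22, with a mean of 0.42 ± 0.44 (SD, n = 2 lines). The difference was not larger than the error of the fit (limma SE 0.72, adjusted p = 0.9999, n = 2 lines), and its 95% interval ran from -1.01 to 1.86 on the log2 scale. That interval runs from 2.02-fold lower to 3.62-fold higher in the WIN1 lines. On the deposited values without scaling the direction turned. Those values were 1515 (line 13), 1633 (line 22) and 1742 (control), and the log2 ratios became -0.20 and -0.09. Without scaling, however, all kept probe sets together had medians of -0.27 (line 13) and -0.78 (line 22). KAR stood above those medians by 0.08 in line 13 and 0.69 in line 22. They were not matched for brightness. After scaling, the line 22 median was -0.09 over all kept probe sets and 0.41 in the brightest decile, which held KAR.

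FATB lay on opposite sides of the control in the WIN1 lines. After scaling, FATB read 199.8 on the line 13 array, 84.8 on the line 22 array and 144.5 on the control array. Line 13 was thus the highest of the 3 arrays and line 22 the lowest, with the control between them. The log2 ratio was 0.42 in line 13 and -0.66 in line 22, with a mean of -0.12 ± 0.76 (SD, n = 2 lines), so the spread between the lines was wider than the mean difference. In limma the SE was 0.76 and the adjusted p was 0.9999 (n = 2 lines), with a 95% interval from -1.62 to 1.39. The order of the arrays was the same on the deposited values, at 203.6 (line 13), 60.4 (line 22) and 183.4 (control). The mean over the lines had no stable sign: it was 0.03 with arrays scaled to a common median and 0.02 after quantile normalization.

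FATA gave no level above background on any array. The deposited values were -10.3 (line 13), -6.89 (line 22) and -16.7 (control). All 3 lay below 0, so they give no order of the arrays and no ratio was taken. The FATA probe set was among 740 probe sets (8.97% of the array) that were at or below 0 on all 3 arrays. A value below 0 on 1 probe set does not show that the transcript was absent from these leaves.

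**Figure D1:**
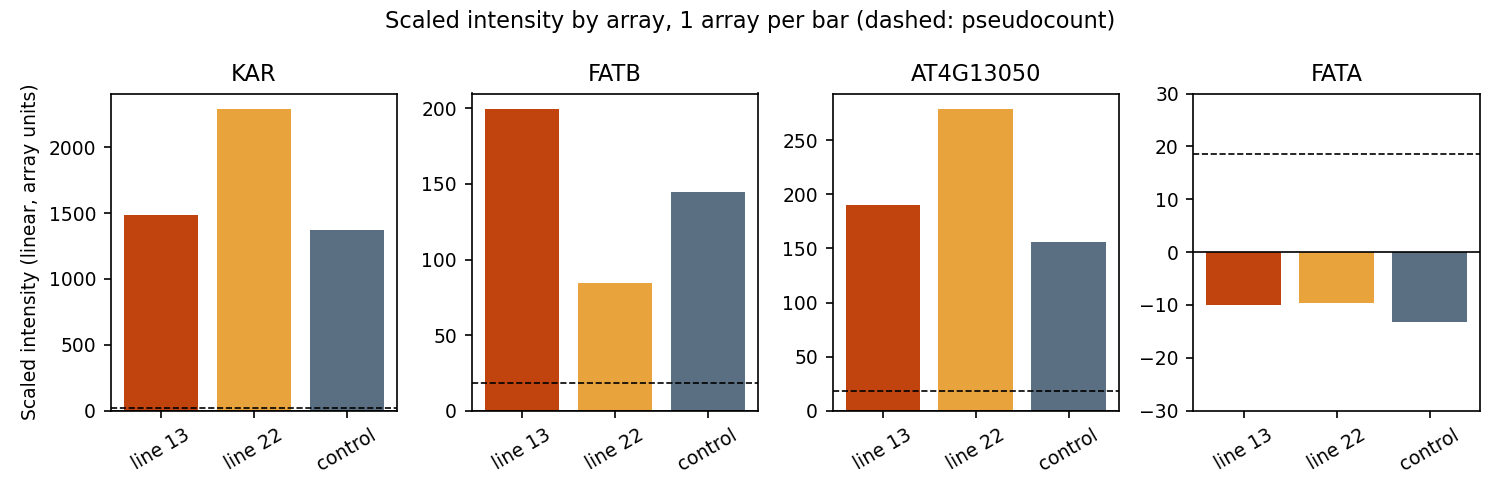
Scaled intensity (linear array units) of KAR, FATB, AT4G13050 and FATA in WIN1 line 13, WIN1 line 22 and the empty-vector control, 1 array per bar and no error bars; each panel has its own axis, so heights compare arrays and not genes. KAR and AT4G13050 were highest in line 22 (2293 and 279.2), FATB was lowest in line 22 (84.8), and FATA was below 0 on all 3 arrays; the dashed line is the pseudocount of 18.6.

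Neither of the 2 kept genes passed the limma test at an adjusted p under 0.05, nor at an unadjusted p under 0.05. Over all kept probe sets, 0.0346% passed after adjustment and 2.23% before it. By size alone, without a test, neither gene was at least 2-fold from the control the same way in both lines, as 1.42% of kept probe sets were. Neither reached 2-fold in line 13, where 2.74% of kept probe sets did, or in line 22, where 23.8% did. The line 22 call depended on the scaling: KAR passed 2-fold there with a common median (log2 ratio 1.15) and FATB on the deposited values (-1.36). FATB was at least 2-fold apart between the lines, with a log2 difference of 1.08 for line 13 minus line 22, and KAR was not, with -0.62. Scaling to a common median turned both calls, with 0.66 for FATB and -1.09 for KAR. FATB also stayed under 2-fold after quantile normalization (0.77) and with a pseudocount at the 40th percentile (0.86). A 2-fold gap between the lines was found in 21.9% of all kept probe sets, so a gap of that size was common. Each line had 1 array, and the gap has no replicate check.

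The arrays of the lines differed in how closely they followed the control. Over all kept probe sets the SD of the log2 ratio was 0.40 in line 13 and 0.94 in line 22. Among the 108 genes read by several kept probe sets, the log2 ratios of 1 gene's probe sets had an SD of 0.22 in line 13 and 1.12 in line 22. The line 22 ratios of KAR (0.73) and FATB (-0.66) were thus smaller than the spread between probe sets of a single gene on that array. In line 13 the FATB ratio of 0.42 was larger than this spread, and 583 of the 5773 kept probe sets had a higher ratio there. In either direction, 18.7% of kept probe sets lay at least as far from the control in line 13. The KAR ratio of 0.11 in line 13 was about equal to the SD of 0.11 among the 18 such genes in the brightest 20% of kept probe sets.

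The line 22 ratios differed with brightness, though not in 1 direction throughout. When kept probe sets were ordered into deciles by mean log2 intensity, KAR fell in the brightest decile and FATB in the sixth. The line 22 median was -0.05 in the dimmest decile and lowest in the fifth, at -0.28, and it was higher in each decile after that. The brightest decile had a median log2 ratio of 0.41 in line 22, with quartiles of -0.04 and 0.69, against -0.03 in line 13. KAR, at 0.73, lay just above the upper quartile of that decile. The decile is broad, and it was not matched more closely to KAR, which stood at brightness percentile 98.1 of all probe sets. The sixth decile had a median of -0.23 in line 22, with quartiles of -0.84 and 0.35, and the FATB ratio of -0.66 lay within them. In line 13 the same decile had quartiles of -0.17 and 0.20, and FATB, at 0.42, lay above them. The part of brightness in the line 22 ratios was not tested.

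**Figure D2:**
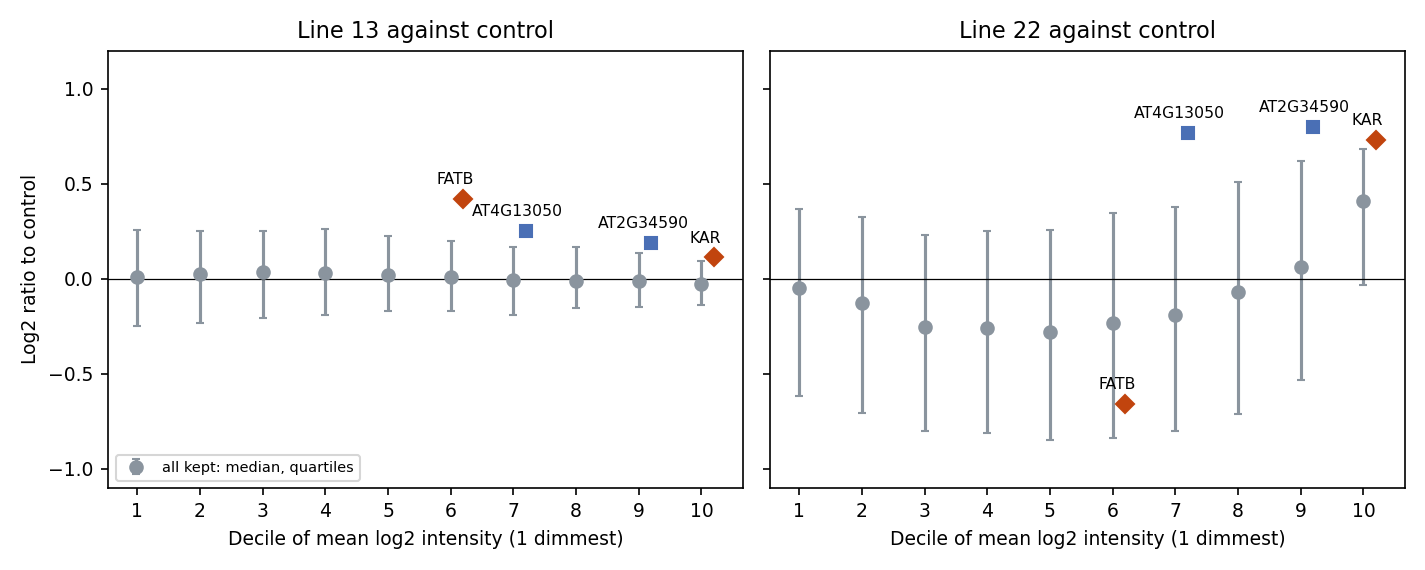
Log2 ratio to the control by decile of mean log2 intensity (1 dimmest, 10 brightest) for WIN1 line 13 and WIN1 line 22; grey points are medians of all kept probe sets, bars their quartiles, diamonds KAR and FATB and squares AT4G13050 and AT2G34590, drawn beside their decile. The grey medians stay near 0 in line 13 and reach 0.41 in the brightest decile in line 22, where KAR stood at 0.73, while FATB stood at 0.42 in line 13 and -0.66 in line 22.

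Few other genes of the pathway could be read. Of 57 listed genes of plastid acetyl-CoA supply, fatty acid synthase, acyl release, acyl activation and their regulators, 5 matched a probe set, 3 of them KAR, FATA and FATB. No acetyl-CoA carboxylase subunit, acyl carrier protein, stearoyl-ACP desaturase or long-chain acyl-CoA synthetase on the list did. AT4G13050, listed with the acyl-ACP thioesterases, read 190.0 (line 13), 279.2 (line 22) and 156.3 (control) in scaled intensity, with log2 ratios of 0.25 and 0.77. Both lines were above the control and line 22 was the highest, the same order as KAR and not that of FATB, but on the deposited values its log2 ratios were -0.03 and 0.0036. AT2G34590, listed with plastid pyruvate dehydrogenase, which supplies acetyl-CoA for the first step, read 634.9 (line 13), 979.1 (line 22) and 554.1 (control). Its log2 ratios of 0.19 and 0.80 were close to those of KAR, and they too lost their size on the deposited values, at -0.12 and -0.01. Neither gene passed limma (adjusted p = 0.9999 for both, n = 2 lines). The 4 kept genes of these lists include KAR and FATB. Their median log2 ratios were 0.22 (line 13) and 0.75 (line 22), against 0.01 and -0.09 over all kept probe sets. FATB went the other way in line 22, at -0.66. That background was not matched for brightness. The brightness deciles of KAR, AT2G34590, AT4G13050 and FATB had line 22 medians of 0.41, 0.06, -0.19 and -0.23. The leaf marker probe sets had medians of -0.02 (line 13) and 0.74 (line 22).

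Ratios between genes within an array do not depend on a single factor per array, but they do change where probe sets of different brightness are scaled differently, as in quantile normalization. They were taken from the deposited values without a pseudocount. Relative to KAR, FATB stood at 1.28 times its control proportion in line 13 and 0.351 times in line 22, or 0.594 times in line 22 after quantile normalization. Relative to AT4G13050, FATB stood at 1.14 times its control proportion in line 13 and 0.329 times in line 22, or 0.367 times after quantile normalization. With a single factor per array, the proportions of KAR to AT2G34590 and to AT4G13050 were closer to those in the control. KAR relative to AT2G34590 was 0.945 times the control proportion in line 13 and also 0.945 times in line 22. KAR relative to AT4G13050 was 0.891 and 0.935 times. After quantile normalization these line 22 values were 0.794 times for AT2G34590 and 0.618 times for AT4G13050, so the closeness in line 22 rests on the scaling. These proportions rest on 1 probe set a gene and 1 array a group and have no test. The AT2G34590 probe set, 15210_s_at, also has the _s_at suffix, so its values too may include related transcripts.

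In line 22 some leaf markers had ratios close to the 0.73 of KAR, namely PRK, RCA and PSAE-1 (0.71). SBPASE (0.18) and LHCB4.1 (0.48) were lower. In line 13 each marker gene lay below the 0.11 of KAR. A raised line 22 ratio was not particular to these markers, as the brightest decile of kept probe sets had a median of 0.41. PRK, the Calvin cycle enzyme phosphoribulokinase, had log2 ratios of 0.09 (line 13) and 0.74 (line 22), and the rubisco activase RCA had -0.02 and 0.80. Over the 5 marker genes the mean was -0.01 in line 13, ranging from -0.06 to 0.09, and 0.58 in line 22, ranging from 0.18 to 0.80, whereas on the deposited values it was -0.33 in line 13 and -0.24 in line 22. Relative to these markers, on the deposited values, KAR stood at 1.09 times its control proportion in line 13 and 1.11 times in line 22. FATB stood at 1.39 times in line 13 and 0.390 times in line 22, or 0.662 times in line 22 after quantile normalization. The part of leaf cell content in these ratios was not tested.

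**Figure D3:**
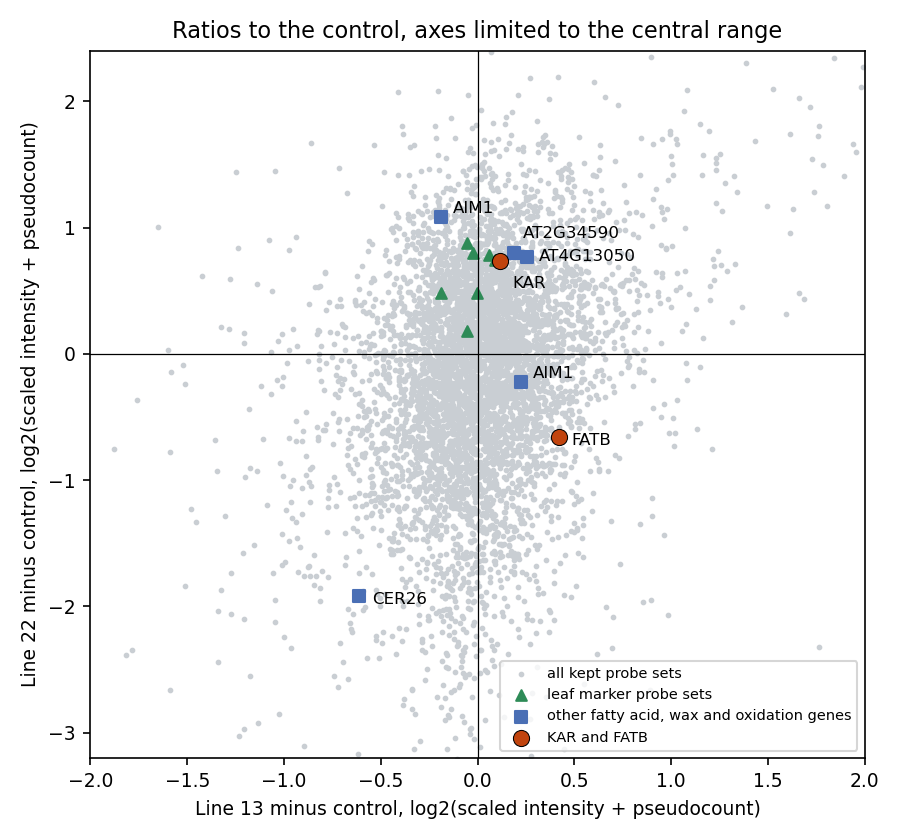
Log2 ratio to the control in WIN1 line 13 (horizontal) and WIN1 line 22 (vertical), on the log2(scaled intensity + pseudocount) scale, for all kept probe sets (grey; 60 lie outside the axes), leaf marker probe sets (triangles), other fatty acid, wax and beta-oxidation genes (squares) and KAR and FATB (circles). KAR, AT2G34590 and AT4G13050 lie together, between 0.11 and 0.25 in line 13 and between 0.73 and 0.80 in line 22, near most leaf markers, whereas FATB lies at 0.42 and -0.66; both axes share the 1 control array.

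Genes that use the released acyl chains were also mostly unread. Of 49 listed genes of glycerolipid desaturation, wax, cutin and beta-oxidation, 2 matched a probe set and neither passed limma at an adjusted p under 0.05 or an unadjusted p under 0.05. CER26 (AT4G13840), which acts in the elongation of very long acyl chains for wax, had log2 ratios of -0.61 (line 13) and -1.92 (line 22), below the control on each (limma unadjusted p = 0.0975, adjusted p = 0.9999, n = 2 lines). Neither KAR nor FATB was lower than the control in both lines after scaling. AIM1 (AT4G29010), a multifunctional enzyme of peroxisomal beta-oxidation, was read by 2 probe sets that disagreed. Probe set 20459_i_at gave -0.19 in line 13 and 1.08 in line 22, and 20460_s_at gave 0.22 and -0.23. With 1 probe set each, KAR, FATA and FATB have no such check within the gene.

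The position of each gene within its own array gave the same order of the arrays as the scaled values. It was taken from the same deposited values, so it is not a separate measurement. KAR lay at percentile 97.8 of all probe sets on the line 13 array, 98.4 on the line 22 array and 97.5 on the control array. FATB lay at percentile 71.7 (line 13), 59.7 (line 22) and 65.5 (control). AT4G13050 lay at 70.7, 80.4 and 67.0 in the same order. Both lines thus exceeded the control for KAR and AT4G13050, while FATB was above it in line 13 and below it in line 22.

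The genes with the most similar pair of ratios were sought among 2597 kept probe sets paired with 1 other gene, by Euclidean distance over the 2 log2 ratios, which come from 3 arrays. Those nearest to KAR were AT2G31810 (0.12 in line 13 and 0.72 in line 22, distance 0.015), PRK (distance 0.027) and AT2G40510 (0.09 and 0.70, distance 0.037). Those nearest to FATB were AT2G13960 (0.39 and -0.62, distance 0.049), AT4G03000 (0.35 and -0.68, distance 0.073) and AT2G43210 (0.35 and -0.69, distance 0.081). With only 3 arrays, such closeness is a description of these ratios.

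The scaling chosen changed the size of the ratios more than the pseudocount did. Across the scaling, pseudocount and floor settings, the line 22 ratio of KAR ranged from -0.09 on the deposited values to 1.15 with a common median, and it was 0.33 after quantile normalization. Set against the median of all kept probe sets under the same scaling, it was 0.69, 0.89 and 0.27. That median was not matched for the brightness of KAR. The line 22 ratio of FATB ranged from -1.36 on the deposited values to -0.30 with a common median, and its line 13 ratio from 0.14 to 0.47. FATB was above the control in line 13 and below it in line 22 under each of these settings. KAR was above the control in both lines under each setting except the deposited values, where it was below in both.

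**Figure D4:**
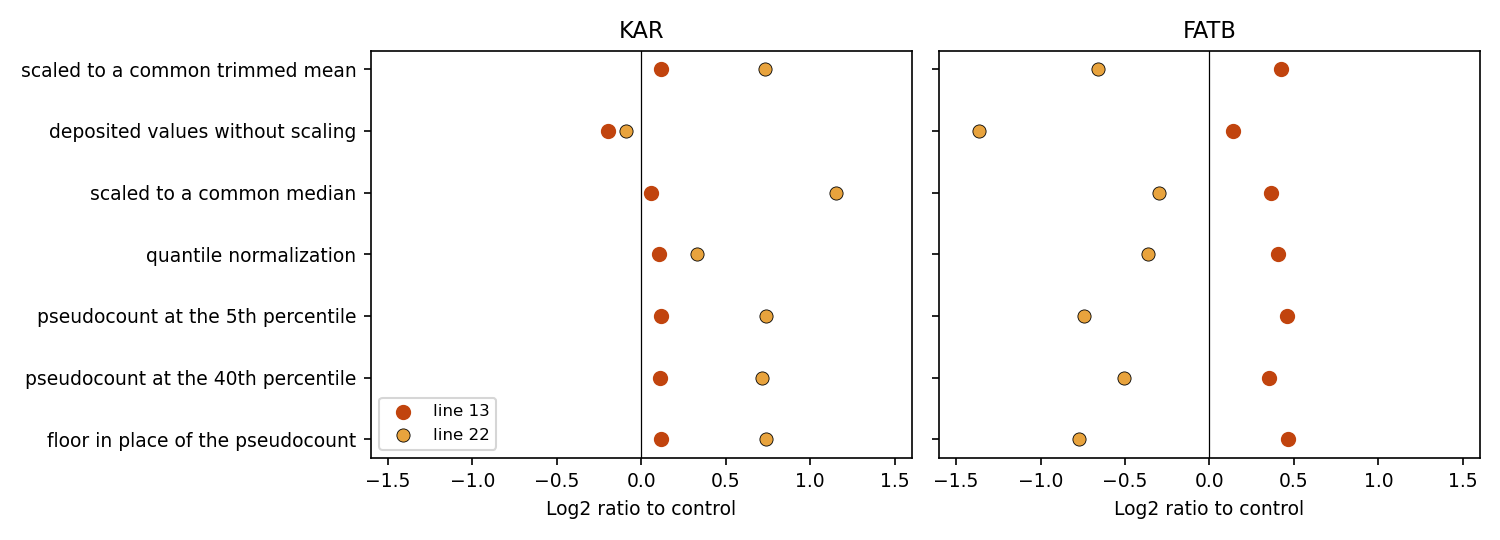
Log2 ratio to the control of KAR and FATB in WIN1 line 13 and WIN1 line 22 under each scaling, pseudocount and floor setting, 1 point per line. KAR in line 22 ranges from -0.09 to 1.15, and FATB stays above 0 in line 13 (0.14 to 0.47) and below 0 in line 22 (-1.36 to -0.30).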

How the data were processed

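Leaf RNA of 2 WIN1 lines and 1 empty-vector control was measured, and the deposited values were linear intensities, 1 per probe set and array. Per the labels, labelling, hybridisation and scanning followed the manufacturer; how the authors summarised probes or subtracted background is unknown. Per the file headers, all 3 chips came from 1 lot and had 1 scan day. Arrays were scaled to a common mean of 176.6, trimmed by 2% at each end (factors: line 13, 0.981; line 22, 1.40; control, 0.788). Values below 0 were set to 0, the pseudocount of 18.6 (the 20th percentile of positive scaled values) was added and log2 taken. Probe sets above the 30th percentile of mean log2 value were kept. limma 3.58.1 in R 4.3.3 (lmFit, eBayes with trend, two-sided, Benjamini-Hochberg over the 5773 kept probe sets) compared the lines with the control. It had 1 residual degree of freedom, from the spread between the lines, against a median of 85.3 prior ones, and took the control to be as variable as the lines. Precision is limited by having 3 arrays.

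Gene names were taken from the platform annotation and updated through RefSeq (TAIR10.1) gene IDs. Among all probe sets, 3794 had 1 gene, 70 had several, 4383 had none, and 3784 matched a locus. The files name no genome build, so no coordinates are printed. The genes and lists were chosen with earlier results of these data known. The alternatives were planned, whereas the descriptions by brightness decile, within-gene SD, array percentile and proportions between genes were chosen after seeing the data. The rule for named genes took the 3 genes, the matched genes of the pathway lists, and the 3 nearest patterns of each kept gene. The limma step was tested on simulated data. These had the same spread on all 3 arrays and added changes larger than the ratios of KAR and FATB. That test therefore does not cover changes of their size.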

Additional observations from a re-analysis of the deposited data

How the results depend on the processing

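No paired analysis was possible because the control group has 1 array. With 1 line at a time limma has no residual degrees of freedom, and KAR gave log2 ratios of 0.114 to 0.732 and FATB of -0.658 to 0.421, without a test. No alternative gave KAR or FATB an adjusted p under 0.05 in limma (range 0.964 to 1). The mean log2 ratio of KAR turned to -0.145 on the deposited values, and that of FATB to 0.0333 with a common median and 0.0209 after quantile normalization. FATA was below 0 throughout and has no ratio. The proportions after quantile normalization were chosen after seeing the data. The 2 probe sets past adjusted p became 1 under common-median scaling, the 5th percentile pseudocount, eBayes without trend or robust eBayes, and 4 under the 40th percentile pseudocount. Quantile normalization, the floor and no filter each left 0, where limma gave 60, 43 and 307 at an unadjusted p under 0.05. Of probe sets 2-fold from the control in both lines there were 82 (50 higher). This count was 129 (22 higher) on the deposited values, 147 under the 5th and 39 under the 40th percentile pseudocount, 146 (66 higher) under the floor, 110 (51 higher) unfiltered and 47 under the stricter filter. It was 275 for 1.5-fold, 26 for 3-fold, and 158 to 1372 for 1 line alone. The gap between the lines reached 2-fold in 1262 probe sets, in 752 under the 40th percentile pseudocount, 1.5-fold in 2691 and 3-fold in 451. Filters, fold thresholds and pseudocounts change counts by construction; other causes were not tested.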
